A study of Mus musculus with 6 samples.

Results

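The 10 CXC chemokine genes described here were Cxcl1, Cxcl2, Cxcl3, Cxcl9, Cxcl10, Cxcl13, Cxcl14, Cxcl16 and the platelet-type members Pf4 and Ppbp, out of 22180 genes with a probe set of their own symbol on the array. They were taken by name as members of 1 family, and each had 1 probe set annotated to its symbol alone. Macrophages had been grown from the bone marrow of 3 C57BL/KaLwRij mice with M-CSF for 7 days, then kept overnight with 5TGM1-luc cells, a mouse myeloma line that carries luciferase. One group was given 0.5 nM of an antibody against CSF1R, the M-CSF receptor, for 3 days and the other a control IgG, and all were washed 4 times to take away myeloma cells before RNA was extracted. Both groups thus had M-CSF during differentiation and contact with myeloma cells, and neither group was without the co-culture. Each group had 3 GeneChip Mouse Gene 2.0 ST arrays, and the values are log2 of the deposited probe set intensities. The labels do not say which mouse an array came from, so p-values here rest on the variation among 3 samples a group, and that variation may be only technical.

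CXC chemokines are small secreted proteins that attract leukocytes through G protein-coupled receptors. Members with a Glu-Leu-Arg motif before the first cysteine, such as CXCL1, CXCL2, CXCL3 and the processed product of Ppbp, draw neutrophils through CXCR2. Members without it act elsewhere: CXCL9 and CXCL10 are induced by interferons and attract T cells and natural killer cells through CXCR3, CXCL13 guides B cells through CXCR5, and CXCL16 is made as a membrane protein and binds CXCR6. Macrophages are a known source of several of them, while PF4 and the Ppbp product are best known from platelet granules.

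The labelled cell type was borne out by its markers. All 9 measured macrophage markers, among them Adgre1, Cd68 and Csf1r, gave signal on every array above the level of receptor genes described next, and all 9 were higher with the antibody, with a median difference of 1.24 on the log2 scale. Their summed intensity ran from 28281 to 29155 on the antibody arrays and from 15737 to 16450 on the IgG arrays. Markers of plasma cells and myeloma were also well expressed after the washes. Of 11, 0 were higher and 7 lower, beside 12.5% and 16% of all genes. Their median difference was -0.30, and their summed intensity was 16320 to 17843 with the antibody against 20600 to 21172 with IgG. In RNA of whole cultures, fewer cells of a type and less RNA per cell cannot be told apart. Arrays have no count of molecules, so 1390 receptor genes of the olfactory and vomeronasal families, which macrophages are not known to need, were taken as a guide to background, and the 95th percentile of their means was 4.92.

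With the antibody, 4 of the 10 CXC chemokines were higher, 1 was lower and 5 did not pass the test, at a limma adjusted p under 0.05 in the fit over all genes. Of all genes tested, 28.5% passed, 12.5% as higher and 16% as lower, or 2766 and 3548 genes. With cyclic loess scaling these were 3411 and 2346, while the calls of the 10 members were the same. The 4 that rose were Cxcl10, Ppbp, Cxcl16 and Pf4, each by more than 2-fold, a size that 2.89% of all genes reached with a passing test. The 1 that fell was Cxcl14. The same 5 genes were those whose 3 antibody and 3 IgG values did not overlap, as was true of 39.3% of all genes. The median difference over the 10 members was 0.24, beside -0.02 over all genes, and the range was from -0.47 to 2.37. Of the 5 that did not pass, Cxcl3, Cxcl9 and Cxcl13 had means below the guide to background in both groups, so for these the arrays do not show whether the transcript changed. No filter on signal was used in this fit.

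**Figure D1:**
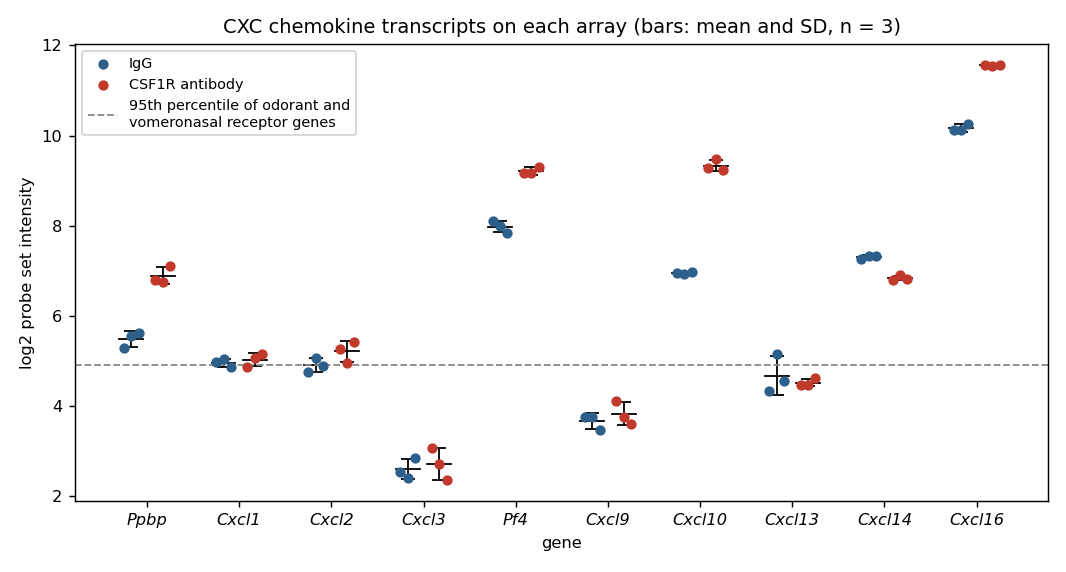
Log2 probe set intensity (y axis) of the 10 CXC chemokine genes (x axis) on each of 3 IgG arrays (blue) and 3 CSF1R antibody arrays (red), with mean and SD; the dashed line is the background guide of 4.92. Red and blue points lie apart for Ppbp, Pf4, Cxcl10, Cxcl14 and Cxcl16 and overlap for the other 5, and levels of different genes come from different probes and are not comparable.

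Cxcl10 (probe set 17449718), the interferon-induced attractant of activated T cells and natural killer cells, had the largest difference of the family. Its log2 values were 9.28, 9.47 and 9.24 on the antibody arrays and 6.96, 6.94 and 6.97 on the IgG arrays. The antibody values were all higher, with a gap of 2.26 between the nearest pair, and the IgG values were almost equal. The means of 9.33 ± 0.12 and 6.96 ± 0.02 (SD, n = 3) differed by 2.37 (SE 0.07; 95% interval 2.20 to 2.54; limma adjusted p = 8.5e-06), which is 5.17-fold and ranked 20 among 22180 genes ordered from the largest rise down.

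The genes closest to Cxcl10 in pattern, among 12872 others with a mean above the background guide, were Lfng (Pearson r = 0.99985 over the 6 arrays), the antiviral interferon-induced gene Rsad2 (0.99981) and 4930503L19Rik (0.99972). Lfng encodes a glycosyltransferase that modifies Notch receptors. Their own differences were 1.26, 1.27 and 1.45 on the log2 scale. The arrays fall into 2 groups, so these coefficients mostly follow the group difference and are given as a description.

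The other interferon-induced ligands of CXCR3 did not pass the test. Cxcl9 (probe set 17449710), induced mainly by interferon-gamma, stood at 4.11, 3.77 and 3.61 with the antibody and 3.77, 3.77 and 3.47 with IgG. The groups overlapped, and 3 of the 6 arrays had exactly the same value. The difference was 0.16 (SE 0.15; 95% interval -0.19 to 0.51; limma adjusted p = 0.49). Cxcl11, the remaining one of these ligands, had means of 4.62 and 4.41 (limma adjusted p = 0.17), also below the guide in both groups. Cxcl10 was thus the 1 of these 3 interferon-induced ligands that was measurable and past the test. Nothing can be said of the other pair from signal this low.

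Promoter sequences are shown for members that rose, the 1 that fell and members that did not pass, so that their letters can be set beside their values. RefSeq windows on GRCm38.p6, from 250 bases before to 50 after the annotated start, were found for 9 of the 10 members, with Cxcl16 not among them. They were searched on both strands for 3 sets of letters: the NF-kB motif, an interferon response core GAAANNGAA and the STAT motif GAS, TTCNNNGAA. Cxcl10 (chr5:92348840-92349139, minus strand) and Cxcl14 (chr13:56296502-56296801, minus strand), the largest rise and the 1 fall, are printed in gene direction, 5′ to 3′, with every match in capitals.

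Cxcl10: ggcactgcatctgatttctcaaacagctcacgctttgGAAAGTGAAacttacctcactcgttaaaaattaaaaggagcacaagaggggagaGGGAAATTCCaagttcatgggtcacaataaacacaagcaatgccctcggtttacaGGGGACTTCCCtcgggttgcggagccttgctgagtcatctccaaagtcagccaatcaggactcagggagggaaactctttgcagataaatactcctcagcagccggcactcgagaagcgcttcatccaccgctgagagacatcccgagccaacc

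Cxcl14: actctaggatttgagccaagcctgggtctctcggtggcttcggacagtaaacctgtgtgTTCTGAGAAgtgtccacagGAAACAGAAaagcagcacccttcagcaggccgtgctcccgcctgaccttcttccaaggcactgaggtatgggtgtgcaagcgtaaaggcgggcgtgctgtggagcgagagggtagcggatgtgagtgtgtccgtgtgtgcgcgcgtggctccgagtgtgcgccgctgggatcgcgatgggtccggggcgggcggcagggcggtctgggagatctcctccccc

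The Cxcl10 window held an interferon response core from base -213 to -205 and NF-kB matches from -159 to -150 and, as 2 overlapping matches, from -104 to -94. The Cxcl14 window held a GAS match from -191 to -183 and an interferon response core from -172 to -164. Among the other windows, Cxcl9 held 1 interferon response core. Over all 32851 promoter windows of that length, 8.46% held an NF-kB match, 8.56% an interferon response core and 8.30% a GAS match. These are matches of letters, not sites shown to be bound, and a core was present both in a gene that rose and in a gene that fell.

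Cxcl1, Cxcl2 and Cxcl3 encode closely related neutrophil attractants that bind CXCR2 and are textbook targets of NF-kB. None of the 3 passed the test. Cxcl1 (probe set 17438987) read 4.87, 5.07 and 5.15 with the antibody and 4.98, 5.04 and 4.87 with IgG. The groups overlapped near the level of the guide, with antibody replicates 2 and 3 above all IgG arrays and antibody replicate 1 below them, and the difference of 0.07 (SE 0.09; limma adjusted p = 0.64) had a 95% interval from -0.14 to 0.28.

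Cxcl2 (probe set 17438995) had the largest difference of the 3. It read 5.28, 4.96 and 5.42 with the antibody and 4.75, 5.07 and 4.90 with IgG. Antibody replicates 1 and 3 were above all IgG arrays, while antibody replicate 2 lay among them. The difference was 0.31 (SE 0.13; 95% interval -0.01 to 0.63; limma adjusted p = 0.15). Without antibody replicate 2 it was 0.44 and passed (limma adjusted p = 0.038).

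Cxcl3 (probe set 17438975) was far below the guide, at 3.08, 2.71 and 2.37 with the antibody and 2.54, 2.41 and 2.85 with IgG. Its lowest and highest values were both from antibody arrays. The difference of 0.12 had an SE of 0.19 (limma adjusted p = 0.72). The promoters of these 3 genes share the same 11 letters, shown in capitals with 10 bases on either side, which hold an NF-kB match on each strand. They lie at chr5:90891164-90891194 for Cxcl1, chr5:90903792-90903822 for Cxcl2 and chr5:90786018-90786048 for Cxcl3, all on the plus strand, and the matches end at bases -61, -87 and -63 from the start.

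Cxcl1: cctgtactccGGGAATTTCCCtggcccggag

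Cxcl2: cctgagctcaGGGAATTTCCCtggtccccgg

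Cxcl3: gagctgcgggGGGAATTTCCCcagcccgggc

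So 4 of 9 windows held an NF-kB match, those of Cxcl1, Cxcl2, Cxcl3 and Cxcl10, and of these genes Cxcl10 was the 1 that passed the test. Cxcl3 was below the guide in both groups and Cxcl1 and Cxcl2 were near it, so small changes of theirs would not show.

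Ppbp and Pf4, the platelet-type members, both rose. Ppbp (probe set 17438963) encodes pro-platelet basic protein, which is cut to the CXCR2 ligand NAP-2. Its values were 6.81, 6.76 and 7.11 with the antibody and 5.28, 5.55 and 5.61 with IgG. All antibody arrays were higher, replicate 3 the highest. The means of 6.89 ± 0.19 and 5.48 ± 0.18 (SD, n = 3) differed by 1.41 (SE 0.12; 95% interval 1.11 to 1.71; 2.66-fold; limma adjusted p = 0.00030). It was the 1 of 5 measured CXCR2 ligands that passed, the remaining 4 being Cxcl1, Cxcl2, Cxcl3 and Cxcl5.

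Pf4 (probe set 17438969), platelet factor 4, binds heparin and other glycosaminoglycans. It stood at 9.16, 9.17 and 9.31 with the antibody and at 8.10, 7.99 and 7.85 with IgG. The groups were again apart, with antibody replicate 3 the highest here too, whereas the IgG array with the lowest Pf4 had the highest Ppbp. Its means of 9.21 ± 0.08 and 7.98 ± 0.12 (SD, n = 3) differed by 1.23 (SE 0.08; 95% interval 1.04 to 1.42; 2.35-fold; limma adjusted p = 7.9e-05). The intervals of the Ppbp and Pf4 differences overlapped, and whether they differ from each other was not tested.

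Of 9 measured markers of platelets and of megakaryocytes, the cells that shed them, 1 was higher, 1 was lower and 7 did not pass. Of all genes 28.5% passed, so this count does not set the markers apart from genes at large. The integrin chain genes were the 2 that passed: Itga2b, the alpha chain of the platelet fibrinogen receptor, fell by 0.34 (SE 0.05; limma adjusted p = 0.0022), and its partner Itgb3, which osteoclasts and macrophages also use, rose by 0.23 (SE 0.05; limma adjusted p = 0.017). The Itgb3 call was lost without antibody replicate 1 (adjusted p = 0.058) or IgG replicate 1 (adjusted p = 0.054), and with a replicate block (adjusted p = 0.060). Gp6, Clec1b, Tubb1 and Nfe2 were below the guide in both groups. The summed intensity of the 9 markers ran from 335.4 to 357.1 with the antibody and from 337.9 to 345.1 with IgG, so the IgG range lay inside the antibody range. A pair of genes on other lists, picked out after their values were seen, are also known from platelets and megakaryocytes: Vwf, for von Willebrand factor, rose by 1.00 (SE 0.05; limma adjusted p = 3.2e-05; exactly the same value on the 3 antibody arrays), and F13a1, for the A chain of factor XIII and also a monocyte gene, rose by 2.53 (SE 0.05). Of 6 endothelial markers, 2 were higher, Vwf and Kdr (1.34, SE 0.06), and 4 did not pass. Their summed intensity was 476.6 to 490.1 with the antibody against 261.8 to 272.9 with IgG. Kdr had the highest signal of the 6 and weighs most in that sum. Of 7 measured monocyte markers, the list F13a1 came from, 3 were higher, 1 was lower and 3 did not pass. By comparison, 12.5% of all genes were higher and 16% lower. The part of platelets, megakaryocytes or any of these other cells in the Ppbp and Pf4 values was not tested.

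Ppbp and Pf4 are neighbours on chromosome 5, and neither window held any of the 3 motifs. Both are printed in gene direction, 5′ to 3′, for comparison with Cxcl10 and the Cxcl1 group: Ppbp at chr5:90768268-90768567 and Pf4 at chr5:90772185-90772484, both on the plus strand. With no match, no letter is in capitals. Cxcl13 was the third member with no match.

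Ppbp: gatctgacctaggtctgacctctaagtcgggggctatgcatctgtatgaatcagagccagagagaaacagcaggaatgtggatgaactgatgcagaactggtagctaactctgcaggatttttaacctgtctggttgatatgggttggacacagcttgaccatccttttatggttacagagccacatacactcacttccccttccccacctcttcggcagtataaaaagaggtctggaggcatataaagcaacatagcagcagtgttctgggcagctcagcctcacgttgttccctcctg

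Pf4: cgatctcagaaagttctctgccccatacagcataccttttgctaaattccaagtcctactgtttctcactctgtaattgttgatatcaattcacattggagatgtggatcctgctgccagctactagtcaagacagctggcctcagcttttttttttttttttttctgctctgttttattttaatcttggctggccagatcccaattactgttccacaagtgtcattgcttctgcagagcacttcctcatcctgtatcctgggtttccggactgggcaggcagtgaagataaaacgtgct

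**Figure D2:**
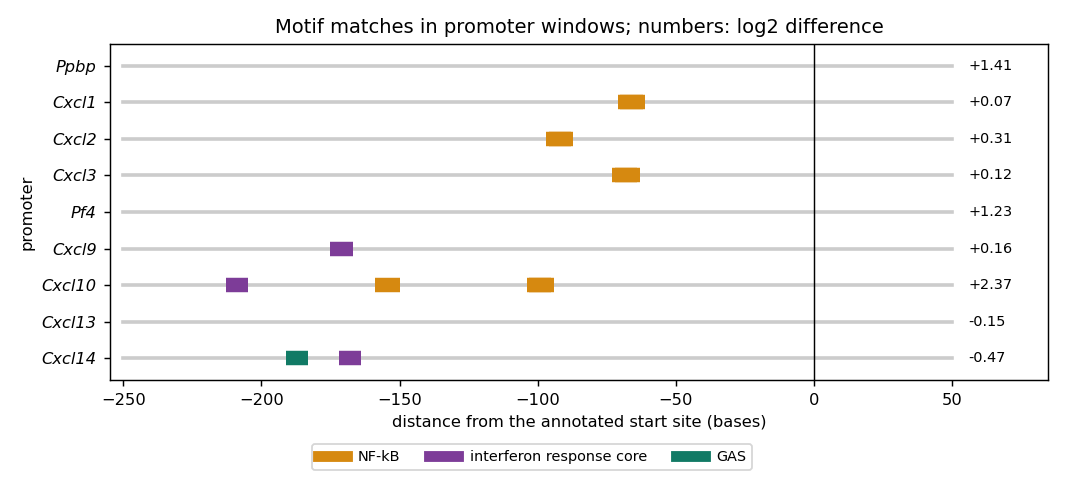
Matches of the NF-kB motif, the interferon response core and GAS (coloured blocks) in 9 promoter windows, by distance from the annotated start in bases (x axis); the number at the right of each line is the log2 difference, antibody minus IgG. Cxcl10, at 2.37, holds matches of 2 kinds, while Ppbp (1.41) and Pf4 (1.23) hold none and Cxcl1, Cxcl2 and Cxcl3 each hold the NF-kB match.

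Cxcl16 (probe set 17265268) encodes a transmembrane chemokine that is also a scavenger receptor for oxidised lipoprotein. It read 11.57, 11.54 and 11.56 with the antibody and 10.13, 10.12 and 10.27 with IgG. The antibody arrays were nearly identical and all higher by at least 1.28. Means of 11.56 ± 0.01 and 10.17 ± 0.08 (SD, n = 3) differed by 1.39 (SE 0.06; 95% interval 1.25 to 1.52; 2.62-fold; limma adjusted p = 1.4e-05). The differences of Cxcl16, Ppbp and Pf4 all lay within the range of the 9 macrophage markers, 0.33 to 1.74, and that of Cxcl10 lay above it. The part of a general rise of macrophage transcripts in these values was not tested.

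Cxcl14 (probe set 17293006) encodes a chemokine made constitutively by epithelial and stromal cells. Its values were 6.80, 6.90 and 6.83 with the antibody and 7.26, 7.34 and 7.33 with IgG. All antibody arrays were lower. The means of 6.84 ± 0.05 and 7.31 ± 0.04 (SD, n = 3) differed by -0.47 (SE 0.05; 95% interval -0.59 to -0.34; 1.38-fold lower; limma adjusted p = 0.00074). Of 10 stromal markers measured on the same arrays, 5 were lower, 1 (Dcn) was higher and 4 did not pass. By comparison, 16% of all genes were lower and 12.5% higher. Dcn, Lum and Fap were below the guide in both groups. The median difference of the 10 was -0.35, and their summed intensity was 1033 to 1087 with the antibody against 1941 to 1998 with IgG. Acta2, which fell by 1.20 (SE 0.05), had the highest signal of the 10 and weighs most in that sum. Postn fell by 1.08 (SE 0.04). Of the 5 lower calls, that of Col3a1 was lost when any 1 array was left out (adjusted p = 0.058 to 0.15) and with median centring, cyclic loess or robust variances, and that of Col1a2 with the mean of probe sets (adjusted p = 0.094). The part of the stromal markers in the Cxcl14 value, and that of the plasma cell markers, was not tested.

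Cxcl13 (probe set 17439367), which directs B cells into follicles, stood at 4.47, 4.48 and 4.62 with the antibody and 4.34, 5.15 and 4.55 with IgG. IgG replicate 2 alone lay above the guide, and the groups overlapped. The difference of -0.15 (SE 0.20; limma adjusted p = 0.65) was 0.08 without that array.

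Of 5 further CXC ligands, 0 were higher, 1 was lower and 4 did not pass, where 28.5% of all genes passed. The 1 was Cxcl12, the stromal factor that holds plasma cells and haematopoietic cells in the marrow through CXCR4. It read 6.13, 6.42 and 6.33 with the antibody and 6.61, 6.65 and 6.61 with IgG. The antibody arrays were all lower, and the difference was -0.33 (SE 0.08; limma adjusted p = 0.021). The call was lost without any 1 of the IgG arrays (adjusted p = 0.064 to 0.076) and with cyclic loess scaling (-0.26; adjusted p = 0.054). On the same arrays 5 of 10 stromal markers were lower, beside 16% of all genes, and the part of these markers was again not tested. Cxcl5, Cxcl11 and Cxcl15 were below the guide in both groups. Cxcl17 had means of 5.20 and 5.35 (limma adjusted p = 0.25).

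Among 8 receptors for CXC ligands, 2 were higher, 0 were lower and 6 did not pass. Since 28.5% of all genes passed, this count does not set the receptors apart. Cxcr4, the receptor for CXCL12, read 10.72, 10.72 and 10.75 with the antibody and 10.19, 10.07 and 10.23 with IgG. The antibody arrays were all higher, by 0.57 on average (SE 0.06; 1.48-fold; limma adjusted p = 0.00049). Cxcr4 is also borne by plasma cells, whose markers had a median of -0.30. The receptor for CXCL10, Cxcr3, read 6.04, 5.83 and 5.69 against 5.60, 5.50 and 5.44. Those groups did not overlap, but the gap was narrow, and the difference of 0.34 (SE 0.10; limma adjusted p = 0.042) did not hold without any 1 of antibody replicates 1 and 2 and IgG replicates 1, 2 and 3 (adjusted p from 0.068 to 0.14). It held without antibody replicate 3.

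The receptors for the Ppbp product and CXCL16 gave no passing difference. Cxcr2, for the Ppbp product, had means of 5.09 and 5.06 (limma adjusted p = 0.85), and Cxcr6, for CXCL16, of 3.24 and 3.17 (limma adjusted p = 0.61), which is below the guide. Cxcr1 (5.52 and 5.66; limma adjusted p = 0.15) and Ackr3, a scavenger of CXCL12 (5.47 and 5.32; limma adjusted p = 0.40), did not pass. Cxcr5 and Ackr1 were below the guide in both groups. Of 12 markers of neutrophils, which carry CXCR2, 8 were below the guide in both groups, among them Ly6g, S100a8 and S100a9. Mmp8 (means of 9.65 and 8.42), Prtn3, Cxcr2 and Mpo were above it in at least 1 group. Mmp8 was higher and 11 did not pass, where 28.5% of all genes passed. The summed intensity of the 12 was 999.5 to 1132.5 with the antibody against 579.7 to 601.9 with IgG, and Mmp8 weighs most in it.

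**Figure D3:**
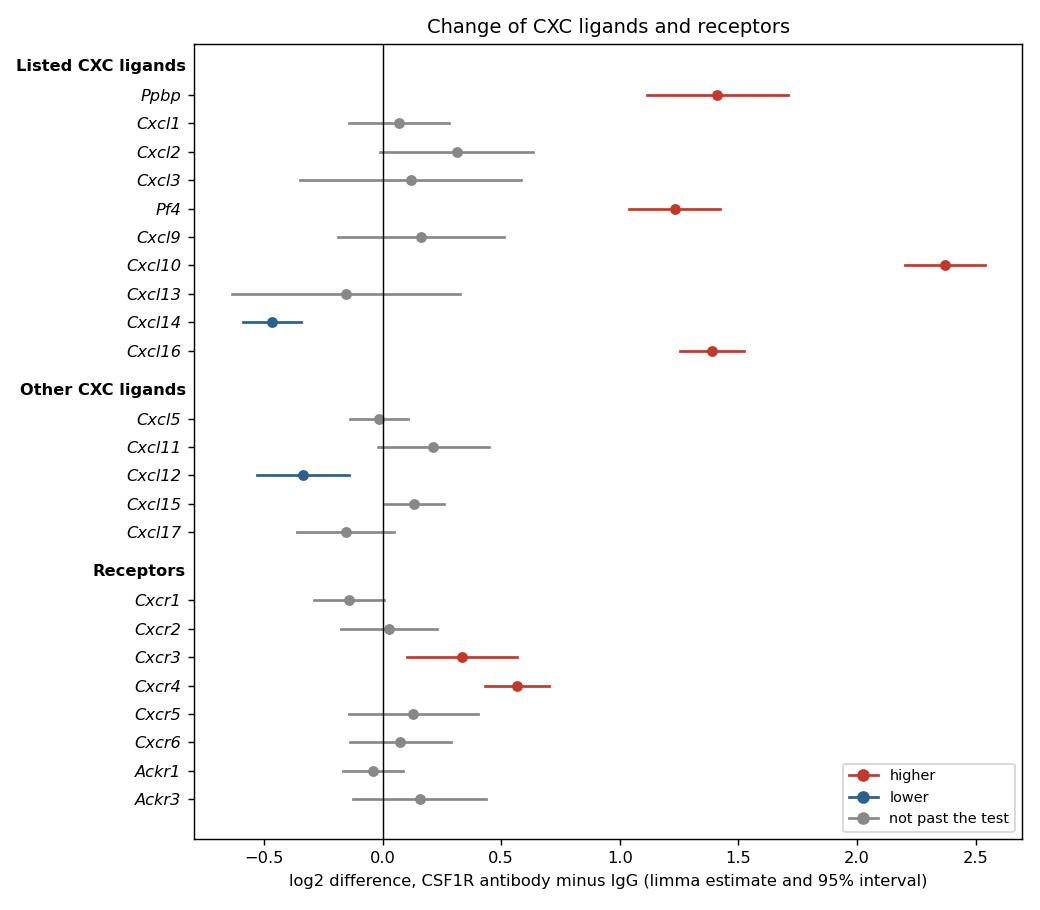
Log2 difference, CSF1R antibody minus IgG (x axis), with its limma 95% interval, for the 10 CXC chemokines, 5 further CXC ligands and 8 receptors (y axis); red passed the test as higher, blue as lower, grey did not pass, and the intervals are not adjusted for the number of genes. Cxcl10 at 2.37 stands to the right of all others, followed by Ppbp, Cxcl16 and Pf4 between 1.23 and 1.41.

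Genes that process CXC ligands were mixed. Of 8 measured, 1 was higher and 1 was lower, where 28.5% of all genes passed, so this count does not set them apart. Mmp8, a collagenase that can trim chemokines and is best known from neutrophils, rose by 1.23 (SE 0.07; 2.35-fold; limma adjusted p = 4.2e-05) and was the 1 of the 12 neutrophil markers that passed. Mmp12, the macrophage elastase, fell by 0.27 (SE 0.05; limma adjusted p = 0.0076), a call lost with cyclic loess scaling (adjusted p = 0.053). The 2 proteases known to shed CXCL16 from the membrane, Adam10 and Adam17, were picked out after their values were seen. Adam10 had a difference of -0.21 (SE 0.06; limma adjusted p = 0.051), which passed under 7 of the alternative settings, and Adam17 one of 0.03 (SE 0.05; limma adjusted p = 0.71).

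Genes of the interferon pathway, which induces Cxcl9, Cxcl10 and Cxcl11, were higher in 10 of 17 cases and lower in 0, with a median of 0.72. Over all genes tested, 12.5% were higher and 16% lower. Irf8, a transcription factor of macrophages and monocytes, rose by 1.73 (SE 0.05; limma adjusted p = 8.1e-06). The kinase gene Jak1 rose by 1.33 (SE 0.04), Irf7, which drives type I interferon transcription, by 1.27 (SE 0.04) and Socs3, a feedback inhibitor of cytokine signalling, by 1.26 (SE 0.08). Irf8 had exactly the same value on the 3 antibody arrays and Irf7 on the 3 IgG arrays, so their own spread is understated. The interferon genes themselves, named here after their values were seen, did not pass: Ifng had means of 5.16 and 5.32 (limma adjusted p = 0.24), and Ifnb1, at 3.05 and 2.88, was below the guide (limma adjusted p = 0.31).

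NF-kB, Toll-like receptor and IL-1 pathway genes, which act on Cxcl1, Cxcl2 and Cxcl3, were higher in 9 of 15 cases and lower in 2. Their median was 0.31, and the shares over all genes were 12.5% higher and 16% lower. Il1b led at 3.35 (SE 0.10), followed by Tlr2 (1.77, SE 0.06) and the adaptor gene Myd88 (1.39, SE 0.05). Zfp36, whose product speeds the decay of AU-rich messenger RNAs, rose by 0.79 (SE 0.07; limma adjusted p = 0.00039). The 2 that fell, named after their values were seen, were Nfkbiz, a nuclear IkB protein gene (-0.41, SE 0.05; limma adjusted p = 0.0015), and Nfkbia, the gene of the NF-kB inhibitor IkB alpha (-0.21, SE 0.05; limma adjusted p = 0.014). The Nfkbia call was lost with arrays centred on their medians (adjusted p = 0.058), with cyclic loess (adjusted p = 0.28) and with a replicate block (adjusted p = 0.059). Macrophage markers were higher by a median of 1.24 on the same arrays as both pathway lists, and their part was not tested.

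**Figure D4:**
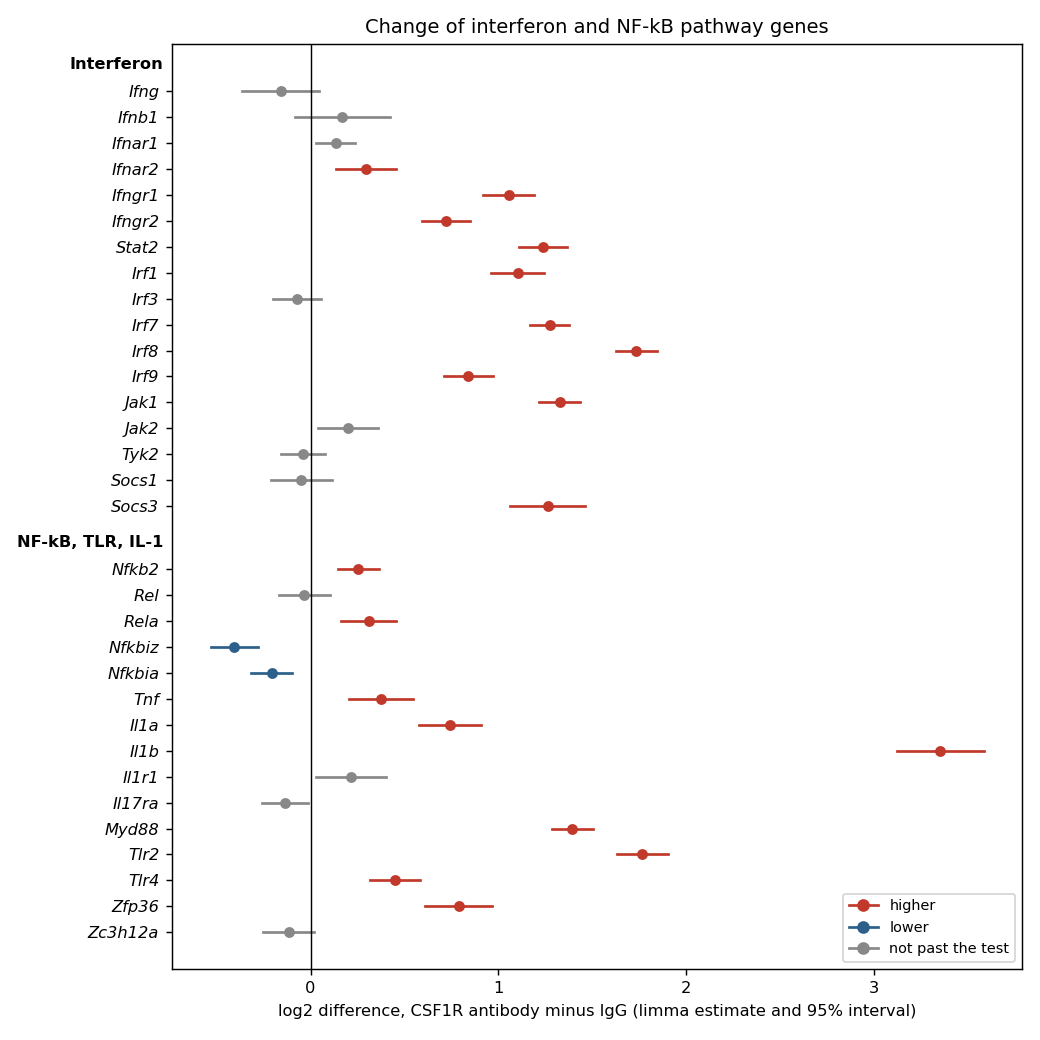
Log2 difference, CSF1R antibody minus IgG (x axis), with its limma 95% interval, for 17 interferon pathway genes and 15 NF-kB, Toll-like receptor and IL-1 pathway genes (y axis); red passed as higher, blue as lower and grey did not pass. Il1b at 3.35 is farthest right, 10 interferon pathway genes are red, and Nfkbiz and Nfkbia are the 2 in blue.

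Neighbouring genes on the chromosome had unlike calls, in part where signal was too low to show a change. In the order Cxcl5, Ppbp, Pf4, Cxcl3, Cxcl15, Cxcl1, Cxcl2 on chromosome 5, the adjacent pair Ppbp and Pf4 passed as higher and the 5 others did not pass. Of those 5, Cxcl5, Cxcl3 and Cxcl15 were below the guide in both groups, and Cxcl1 and Cxcl2 were near it. Farther along, Cxcl9 and Cxcl10 are separated by Art3 alone, which had means of 3.64 and 3.76 and did not pass (limma adjusted p = 0.37). Cxcl9 and Art3 were both below the guide in both groups. Cxcl10 was higher than with IgG by 2.37, and Nup54, the nuclear pore gene on its other side, was lower by 0.35 (SE 0.05; limma adjusted p = 0.0033).

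**Figure D5:**
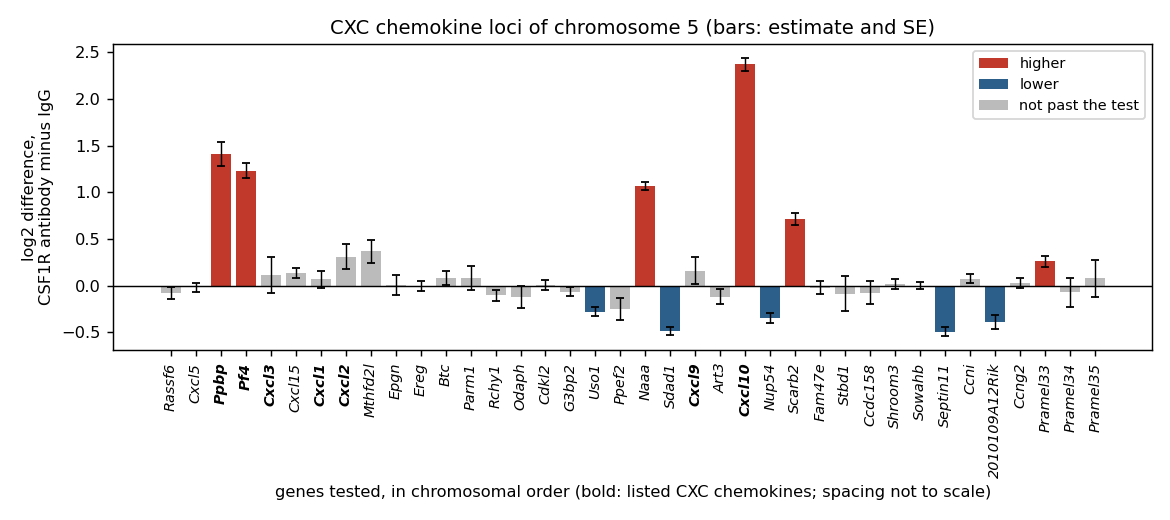
Log2 difference, CSF1R antibody minus IgG (y axis, bars with limma SE), of genes tested along the CXC chemokine loci of chromosome 5 in chromosomal order (x axis, not to scale); bold names are CXC chemokines of the set, red bars passed as higher, blue as lower, grey did not pass. Red bars at Ppbp, Pf4 and Cxcl10 stand beside grey ones at Cxcl3, Cxcl1, Cxcl2 and Cxcl9, and Cxcl13 lies beyond the stretch drawn. Of the grey ones named, Cxcl3 and Cxcl9 were below the background guide in both groups and Cxcl1 and Cxcl2 near it.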

How the data were processed

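Expression was measured in 6 samples, 3 per group; the labels do not say whether each came from its own culture. The deposited values are probe set intensities on a linear scale. RMA and limma are named, with no version or role, per the submitters' processing notes. RMA as usually run corrects background and makes the arrays' distributions alike, so a shift of most genes would be hidden. The genome build is not given in the sources used here. Coordinates belong to the RefSeq promoter table alone. Median log2 signal was 4.88 to 4.95, and correlations over 41345 probe sets were 0.992 to 0.993 within and 0.984 to 0.985 between groups. The number of arrays limits the precision.

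Values were taken as log2. Symbols came from the platform annotation: 23521 probe sets had 1 symbol, 1814 several and 16010 none. Each gene took the probe set with the highest mean. limma 3.58.1 in R 4.3.3 (lmFit, eBayes) compared the groups, with p adjusted over 22180 genes (Benjamini-Hochberg) and called under 0.05. The fit was also run on simulated data with independent noise for each gene, a simpler setting that does not test the calls made here. SE is limma's. The rule for naming genes of each further list was up to 4 members with the largest passing change, or 2 with the smallest p. Ligands and receptors could all be named. Other genes, such as Cd68, Csf1r, Dcn and Col3a1, were named outside this rule. The members and lists were chosen with earlier results of these data known. Python 3.11.15 drew the figures. Alternatives were variance models, array weights, scaling, filters, an offset of 16, the mean of probe sets, a replicate block and leaving out each array.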

Additional observations from a re-analysis of the deposited data

How the results depend on the processing

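Under 17 alternative settings, 4 CXC chemokines were higher and 1 was lower, except that 5 were higher without antibody replicate 2, where Cxcl2 passed. The differences of the 5 that passed ranged from 2.23 to 2.48 for Cxcl10, 1.36 to 1.51 for Cxcl16, 1.17 to 1.34 for Pf4, 1.15 to 1.48 for Ppbp and -0.50 to -0.38 for Cxcl14, all past the test. Of 145 other genes on the lists, 20 changed call under at least 1 setting and 0 reversed. Over all genes, cyclic loess gave 2346 lower in place of 3548, and median centring gave 3071 higher and 2766 lower; the cause was not tested. Same-numbered arrays did not deviate together (correlations of -0.05, 0.00 and 0.03). With 3 arrays a group, this cannot show whether arrays of the same number share a mouse or culture. With a replicate block 2569 genes were higher and 2980 lower. No member's call changed under the block, and Nfkbia and Itgb3 did not pass (limma adjusted p = 0.059 and 0.060). Members near the background guide cannot show small changes. All 3 filters left out Cxcl3 and Cxcl9, 2 of them Cxcl13, and the filter at the 50th percentile also Cxcl1 and Cxcl2.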

Other observations

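Genes next to the CXC chemokines on the chromosome, all picked out after their values were seen, include several that changed. Of 13 measured neighbours listed for chromosome 5, 2 were higher, 2 were lower and 9 did not pass. Of all genes 28.5% passed, so this count does not set the neighbours apart. On the Cxcl9 and Cxcl10 side, Naaa, which encodes a lysosomal hydrolase of fatty acid ethanolamides, rose by 1.07 (SE 0.05; limma adjusted p = 1.7e-05) and Scarb2, a lysosomal membrane protein gene, by 0.71 (SE 0.06). Between them lie genes that fell: Sdad1, needed for ribosome assembly, by 0.49 (SE 0.04) and Nup54 by 0.35 (SE 0.05). Beside Cxcl16 on chromosome 11, Zmynd15 rose by 1.02 (SE 0.09) and Arrb2, which encodes a beta-arrestin that desensitises chemokine receptors, by 0.56 (SE 0.04). Tm4sf5, next to Zmynd15, rose by 0.74 (SE 0.16; limma adjusted p = 0.014). Near Cxcl14 on chromosome 13, Tifab rose by 2.20 (SE 0.11) while Cxcl14 fell. Neurog1, Slc25a48 and Il9 there did not pass, nor did Med11 beside Cxcl16.

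Over genes with 1 promoter window in the RefSeq table, 15.4% of 1166 with the interferon response core were higher with the antibody, beside 11.7% of 13170 without it. For the NF-kB motif the shares were 14.8% of 1266 and 11.8% of 13070, and for GAS 9.60% of 1167 and 12.2% of 13169. The shares lower with the antibody, with and without the motif, were 13.4% and 16.5% for the interferon response core, 16.5% and 16.2% for NF-kB and 13.7% and 16.5% for GAS. These shares are descriptions, and no test was made of them.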
